A study of Mus musculus with 16 samples.

Results

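Astrocytes are the glial cells that enwrap synapses and blood vessels, and 10 genes that mark them were followed in the mouse hippocampus across a learned helplessness experiment. The members are Gfap, Aqp4, Slc1a2, Slc1a3, Aldh1l1, Glul, Gja1, S100b, Aldoc and Sox9. They were chosen by name, and every transcript carrying 1 of these names was taken, which gave 36 of the 80137 transcripts and 10 of the 18287 gene names. The level of a gene is the sum of its transcripts in FPKM, a fragment count divided by transcript length and by the size of the library, so that levels can be compared between genes.

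RNA-seq was performed on hippocampi of 16 male wild type C57BL/6 mice aged 3 months, 4 mice per group, with both hippocampi of a mouse pooled into 1 library. Homecage (HC) mice stayed in their cages, with neither shocks, handling nor an escape test. Control (Ctrl) mice were put into the shuttle box without shocks on the first day and were then given 30 escapable trials of 0.4 mA and no inescapable shocks. Mice of the learned helplessness (LH) and the resilient, non-learned helplessness (NLH) group had all been exposed to 180 inescapable foot shocks of 0.4 mA, were then tested like Ctrl, and were separated afterwards by their escape failures and latency. LH and NLH were thus sorted by behavior after an identical treatment, and no mouse carried a transgene. The comparisons were Ctrl vs. HC for handling, the shuttle box and the test session, which cannot be told apart, NLH vs. Ctrl for the shocked mice that escaped, and LH vs. Ctrl and LH vs. NLH for helplessness. NLH vs. Ctrl, LH vs. Ctrl and Ctrl vs. HC share the 4 Ctrl mice.

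Depth was estimated at 20200000 to 38050000 fragments per mouse. LH replicates 3 and 4 stood apart from the other 14 mice, with 10846 and 15504 transcripts at 0 against 4872 to 7352. Median-ratio size factors, which bring the typical gene to the same level in every mouse, ran from 0.822 in LH replicate 4 to 1.201 in LH replicate 2, so that the gene differences of LH mice are also given after size factors and without LH replicates 3 and 4.

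By textbook knowledge, astrocytes clear glutamate from the synaptic cleft with the transporters GLT1 (encoded by Slc1a2) and GLAST (Slc1a3), convert it to glutamine with glutamine synthetase (Glul) and return the glutamine to neurons. Their endfeet on blood vessels carry the water channel aquaporin 4 (Aqp4), and gap junctions of connexin 43 (Gja1) couple them to each other. Gfap is their intermediate filament, Aldh1l1 an enzyme of folate metabolism, Aldoc the brain form of the glycolytic enzyme aldolase, S100b a calcium-binding protein, and Sox9 a transcription factor that maintains astrocyte identity. Some of these genes are not exclusive to astrocytes, since S100b and Glul are also made by oligodendrocytes, and Aqp4 and Sox9 by ependymal cells.

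All 10 genes were above 0 in all 16 mice, and by mean level they lay between percentiles 63.4 (Sox9) and 99.98 (Glul) of all gene names. In whole tissue, fewer astrocytes and less RNA per astrocyte cannot be told apart. Positions are given on GRCm38 (mm10) from GENCODE vM21, which held all 36 transcripts. Gfap (ENSMUSG00000020932) is on chromosome 11 at 102887336-102900912 and Aldoc (ENSMUSG00000017390) on the same chromosome at 78322968-78327781, as is Sox9 (ENSMUSG00000000567) at 112782224-112787760. Slc1a2 (ENSMUSG00000005089) spans 102658659-102790784 on chromosome 2, Slc1a3 (ENSMUSG00000005360) 8634124-8710764 on chromosome 15 and Glul (ENSMUSG00000026473) 153899944-153909723 on chromosome 1. Gja1 (ENSMUSG00000050953) is at 56377330-56402513 and S100b (ENSMUSG00000033208) at 76253853-76261159, both on chromosome 10. Aldh1l1 (ENSMUSG00000030088) is at 90486427-90600203 on chromosome 6.

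In 7 of the 10 genes a single transcript held at least 90% of the FPKM. The exceptions were Glul, Aldoc and Aldh1l1. Gfap and Slc1a2 each had a minor protein-coding transcript that differs from the main one at the 3′ end of the coding sequence. Gfap-202 (7.22% of Gfap FPKM) carries the ending known as the delta form, and Slc1a2-204 (0.646% of Slc1a2 FPKM) the ending known as the b form of GLT1. The Slc1a2 endings are shown because Slc1a2-204 was called in comparisons below, and reads can be assigned to it only by the bases that differ. Each line gives the last 15 coding bases shared with the partner transcript in lower case, followed in capitals by the transcript's own last coding bases and its stop codon, as in the GENCODE vM21 transcripts.
Slc1a2-202: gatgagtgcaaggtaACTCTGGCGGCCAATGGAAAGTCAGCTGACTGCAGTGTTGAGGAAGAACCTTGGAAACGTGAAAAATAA
Slc1a2-204: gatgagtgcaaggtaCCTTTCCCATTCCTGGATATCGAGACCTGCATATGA
The Slc1a2 pair shared 1650 coding bases, after which Slc1a2-202 had 69 and Slc1a2-204 had 36.

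Glul and Slc1a2, both of glutamate handling, were the most abundant of the set. Mean FPKM over the 16 mice was 447 for Glul and 216 for Slc1a2, followed by Aldoc (93.6), Slc1a3 (59.7), Gfap (41.9), Gja1 (24.5), S100b (20.5), Aqp4 (9.44), Aldh1l1 (4.15) and Sox9 (3.25). Each gene was higher than the next in this order in 16 of 16 mice, apart from Aldh1l1 over Sox9, which held in 13. Across mice the ranges of Aldoc and Slc1a3, Slc1a3 and Gfap, Gfap and Gja1, Gja1 and S100b, and Aldh1l1 and Sox9 overlapped. The rank of Glul depends on its short transcript models, because Glul-201 alone, the full-length transcript, averaged 184 to 227 FPKM in the 4 groups.

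**Figure D1:**
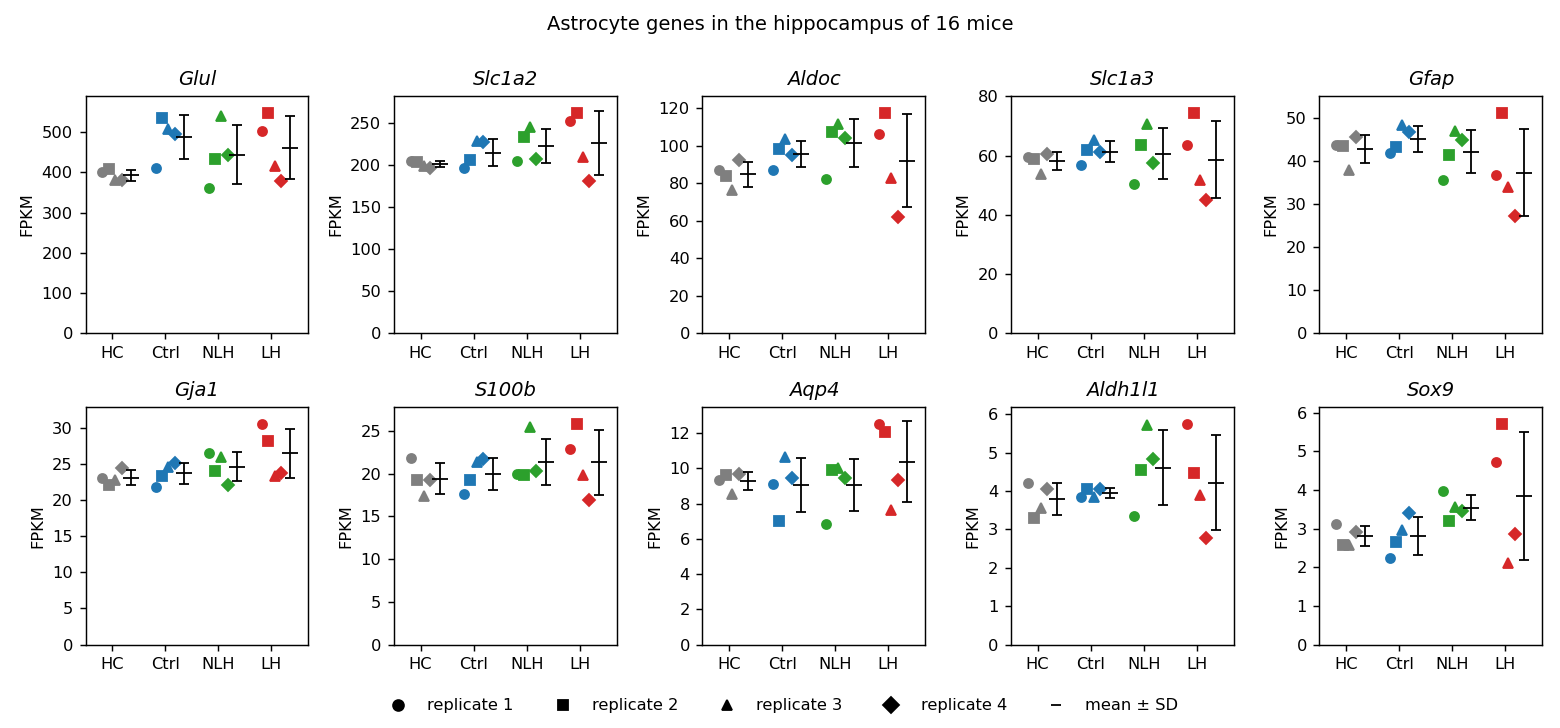
FPKM (y axis) of each of the 10 genes in each mouse by group (x axis), with the marker shape giving the replicate number and the bar the mean ± SD of 4 mice. LH replicate 2 was the highest of all 16 mice for 7 genes and LH replicate 4 the lowest for 6.

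Between groups, none of the 10 genes passed the adjusted threshold of 0.05 in limma (Benjamini-Hochberg over all 18287 gene names) in any of the 4 comparisons. Over all genes this test called 0% in Ctrl vs. HC, 0.00547% in NLH vs. Ctrl, 0% between LH and Ctrl and 0.0109% between LH and NLH. At an unadjusted limma p under 0.05, 1 member was called in Ctrl vs. HC, where 2.7% of all genes were. No member was called this way in NLH vs. Ctrl (5.59% of all genes), LH vs. Ctrl (11.5%) or LH vs. NLH (7.54%). The members' median log2 difference was 0.07 in Ctrl vs. HC, against 0.02 over all genes, and 0.05 in NLH vs. Ctrl, against 0.06 over all genes. It was 0.06 in LH vs. Ctrl, against 0.00 over all genes, and 0.00 in LH vs. NLH, against -0.06 over all genes. After size factors the adjusted test again called none of the 10 genes, when it called 0% of all genes in Ctrl vs. HC, 0.0273% in NLH vs. Ctrl, 0.268% between LH and Ctrl and 0.0164% between LH and NLH. At an unadjusted p on that scale, 1 member each was called in Ctrl vs. HC (Glul, with 4.23% of all genes), NLH vs. Ctrl (Glul, with 6.99%) and LH vs. Ctrl (Gfap, with 15.8%), and 0 in LH vs. NLH (10.4%). The test of the methods on summed FPKM, also unadjusted, called Glul in Ctrl vs. HC (8.5% of the gene names tested), Sox9 in NLH vs. Ctrl (9.57%) and no member when LH was compared with Ctrl (8.01%) or NLH (3.5%). The 95% intervals of the log2(FPKM + 0.1) differences reached 0.21 to either side of the estimate for Gja1, the narrowest, and 0.50 for Sox9, the widest.

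**Figure D2:**
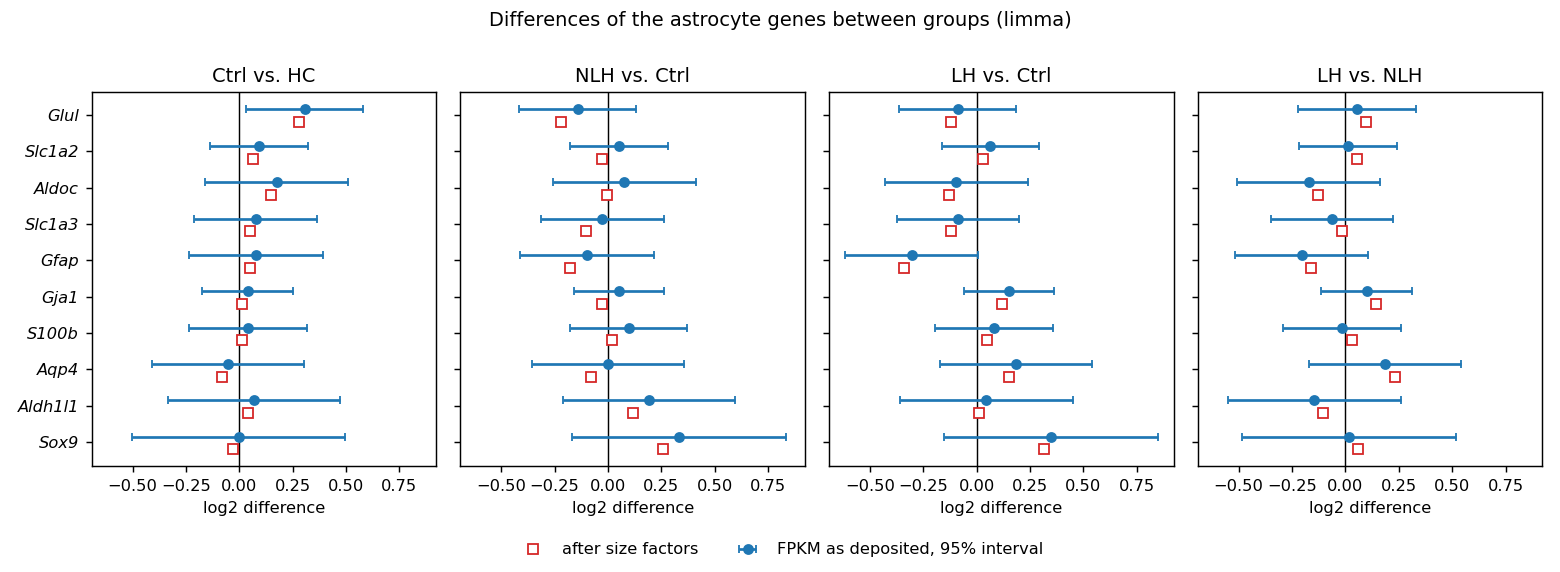
Difference of log2(FPKM + 0.1) between group means (x axis) for each gene (y axis) in the 4 comparisons. Filled points are limma estimates with 95% intervals, and open squares are the estimates after size factors. The interval of Glul in Ctrl vs. HC, from 0.03 to 0.58, is the only one that leaves out 0.

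Glul was the only member whose level on the deposited scale did not overlap between the groups of a comparison. Its FPKM was 400, 409, 382 and 381 in the HC mice and 410, 536, 508 and 497 in the Ctrl mice. All Ctrl mice lay above all HC mice, though Ctrl replicate 1 only just so. The mean was 488 ± 54.3 (SD, n = 4) in Ctrl and 393 ± 13.8 (SD, n = 4) in HC, a ratio of 1.24 and a log2 difference of 0.31 ± 0.13 (SE, limma, unadjusted p = 0.031, adjusted p = 1). The exact permutation test, two-sided, gave p = 0.0286, the smallest that 4 mice against 4 allow. After size factors the log2 difference was 0.28 (limma adjusted p = 0.859), again without overlap. Of all gene names, 5.24% did not overlap between the groups of this comparison, 6.04% in NLH vs. Ctrl, 5.59% between LH and Ctrl and 2.11% between LH and NLH. After size factors no member was without overlap in NLH vs. Ctrl (6.96% of all genes) or between LH and Ctrl (7.92%).
In the shocked mice Glul FPKM was 360, 434, 540 and 443 in NLH and 504, 547, 416 and 379 in LH. Both groups overlapped Ctrl and each other. The log2 difference was -0.14 ± 0.13 in NLH vs. Ctrl, and that of LH was -0.09 ± 0.13 from Ctrl and 0.05 ± 0.13 from NLH (limma, SE). After size factors the difference of NLH vs. Ctrl was -0.22 (limma, unadjusted p = 0.00864, adjusted p = 0.468). As deposited, the lower sum in NLH came from the short model Glul-203, with means of 127 FPKM in NLH and 213 in Ctrl. Full-length Glul-201 (227 against 212) and the short Glul-202 (88.2 against 60.8) were higher in NLH. In Ctrl vs. HC Glul-203 also differed most in FPKM (213 against 147), and Glul-201 alone overlapped.

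The genes of the glutamate transporters differed less between groups. Slc1a2 was 204, 204, 199 and 196 FPKM in HC and 196, 206, 229 and 227 in Ctrl. It was 204, 233, 246 and 207 in NLH and 252, 262, 210 and 181 in LH. On this scale HC held the narrowest range and LH the widest, and every pair of groups overlapped. After size factors LH was the narrowest, at 217.8 to 220.5, and lay above all NLH mice, at 207.2 to 216.5 (exact permutation p = 0.0286, limma log2 difference 0.06 ± 0.04 (SE), adjusted p = 0.648), as 2.93% of all genes did not overlap in this comparison on that scale. The lack of overlap held for the sum only. The main transcript Slc1a2-202, divided by the same size factors, overlapped, with NLH replicate 3 above LH replicates 1 and 2. As deposited, the log2 differences of the sum were 0.09 ± 0.11 in Ctrl vs. HC, 0.05 ± 0.11 in NLH vs. Ctrl (-0.03 after size factors), 0.06 ± 0.11 in LH vs. Ctrl and 0.01 ± 0.11 against NLH (limma, SE). The sum includes the 209-base noncoding Slc1a2-208, at 2.52, 0, 14.1 and 16.3 FPKM in Ctrl and close to 0 in all other mice. For Slc1a2-202 alone the log2 difference was 0.04 ± 0.10 in Ctrl vs. HC and 0.11 ± 0.10 in NLH vs. Ctrl. That of LH was 0.13 ± 0.10 from Ctrl and 0.02 ± 0.10 from NLH. Slc1a3 was 59.4, 58.9, 53.7 and 60.7 FPKM in HC and 56.7, 61.8, 65.5 and 61.3 in Ctrl. It was 50.5, 63.7, 70.7 and 57.5 in NLH and 63.5, 74.3, 51.6 and 45.1 in LH. The groups again overlapped, and the 4 log2 differences lay between -0.09 (LH vs. Ctrl) and 0.08 (Ctrl vs. HC).

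Gfap, the filament whose level is the usual readout of astrocyte reactivity, was 43.8, 43.5, 38.0 and 45.6 FPKM in HC and 41.9, 43.2, 48.5 and 46.8 in Ctrl. It was 35.6, 41.5, 47.0 and 44.9 in NLH and 36.8, 51.2, 34.1 and 27.4 in LH. LH replicates 1, 3 and 4 lay below all Ctrl mice, while LH replicate 2 lay above them all. The mean was 37.4 ± 10.0 in LH and 45.1 ± 3.06 in Ctrl (SD, n = 4 each), and the log2 difference was -0.31 ± 0.15 (SE, limma, unadjusted p = 0.056, adjusted p = 0.444). After size factors the difference was -0.34 (limma, unadjusted p = 0.00154, adjusted p = 0.110). Without LH replicates 3 and 4, on the deposited scale, the difference was -0.05 (limma adjusted p = 0.854). After size factors LH replicates 1 and 2 were at 31.8 and 42.6, against 42.1 to 48.0 in Ctrl. As deposited, with all LH mice, the difference of LH from NLH was -0.21 ± 0.15 (SE).

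Sox9 had the largest standard error of the set. It was 3.11, 2.59, 2.58 and 2.92 FPKM in HC and 2.24, 2.65, 2.96 and 3.41 in Ctrl. The NLH mice were at 3.97, 3.21, 3.55 and 3.45 and the LH mice at 4.72, 5.70, 2.10 and 2.87. NLH overlapped Ctrl through 2 mice, NLH replicate 2 and Ctrl replicate 4, and the LH mice fell on both sides of all 4 NLH mice. The log2 difference from Ctrl was 0.33 ± 0.24 in NLH and 0.35 ± 0.24 in LH (SE, limma adjusted p = 0.982 and 0.616). The exact permutation test gave p = 0.0571 for NLH vs. Ctrl. Without LH replicates 3 and 4, Sox9 alone of the 10 genes was called when LH was compared with Ctrl, with a log2 difference of 0.87 ± 0.16 (SE, limma adjusted p = 0.0200), when 5.41% of all genes were called and the median difference over all genes was 0.19. No member was called in LH vs. NLH without these mice, as against 0.0383% of all genes. In that fit 9 of the 10 genes were higher in LH than in Ctrl, and the members' median difference was 0.27. The remaining 2 LH mice are those with the largest size factors. After size factors, with all LH mice, the Sox9 difference was 0.32 ± 0.19 from Ctrl (SE, limma adjusted p = 0.443).

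Aldoc was 86.8, 83.8, 76.4 and 92.4 FPKM in HC and 86.8, 98.2, 103 and 94.97 in Ctrl, a log2 difference of 0.18 ± 0.16 (SE, limma). After size factors Ctrl, at 91.9 to 102 FPKM, no longer overlapped HC, at 81.6 to 90.9 (exact permutation p = 0.0286, limma adjusted p = 1), when 6.08% of all genes did not overlap. It was 82.5, 107, 112 and 104 in NLH and 106, 117, 83.0 and 62.1 in LH. LH covered the whole range of the other groups and beyond at both ends. Aldh1l1 ran from 3.31 to 4.22 FPKM in HC, 3.84 to 4.07 in Ctrl, 3.34 to 5.72 in NLH and 2.78 to 5.74 in LH, and its largest log2 difference was 0.19 ± 0.19 in NLH vs. Ctrl. S100b ran from 17.3 to 21.8 in HC, 17.6 to 21.7 in Ctrl, 19.9 to 25.4 in NLH and 16.9 to 25.8 in LH, with log2 differences no further from 0 than 0.10.

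The endfoot water channel gene Aqp4 (ENSMUSG00000024411, chromosome 18) was 9.34, 9.60, 8.55 and 9.70 FPKM in HC and 9.09, 6.99, 10.6 and 9.46 in Ctrl. NLH mice were at 6.84, 9.89, 9.99 and 9.43 and LH mice at 12.5, 12.1, 7.65 and 9.31. LH replicates 1 and 2 were above every other mouse, and LH replicate 3 was below all but Ctrl replicate 2 and NLH replicate 1. The log2 difference of LH was 0.19 ± 0.17 from Ctrl and from NLH alike (SE, limma). Gja1, the gap junction gene, ran from 22.1 to 24.5 FPKM in HC, 21.8 to 25.1 in Ctrl, 22.0 to 26.5 in NLH and 23.4 to 30.5 in LH. The log2 difference of LH was 0.15 ± 0.10 from Ctrl and 0.10 ± 0.10 from NLH (SE, limma adjusted p = 0.611 and 0.826).

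The other LH differences also depended on LH replicates 3 and 4. Without them the log2 difference from Ctrl was 0.45 ± 0.16 for Aqp4, 0.31 ± 0.09 for Gja1, 0.26 ± 0.08 for Slc1a2 and 0.28 ± 0.12 for S100b (SE, limma adjusted p = 0.109, 0.060, 0.077 and 0.174). It was 0.35 ± 0.18 for Aldh1l1, 0.22 ± 0.12 for Aldoc, 0.17 ± 0.11 for Slc1a3 and 0.11 ± 0.13 for Glul. At an unadjusted limma p under 0.05 this comparison called 5 of the 10 genes (Aqp4, Gja1, S100b, Slc1a2 and Sox9), when 24.3% of all genes were called. From NLH the difference without LH replicates 3 and 4 was 0.45 ± 0.16 for Aqp4, 0.26 ± 0.09 for Gja1, 0.21 ± 0.08 for Slc1a2 and 0.54 ± 0.16 for Sox9, the 4 genes at an unadjusted p under 0.05, when 15.3% of all genes were called (limma adjusted p = 0.234, 0.226, 0.264 and 0.183). For Glul it was 0.26 ± 0.13 from NLH.
After size factors, with all 4 LH mice, the difference of LH from Ctrl was 0.15 ± 0.14 for Aqp4, 0.12 ± 0.07 for Gja1, 0.03 ± 0.04 for Slc1a2 and 0.05 ± 0.08 for S100b, and -0.12 ± 0.06 for Slc1a3, -0.12 ± 0.07 for Glul, -0.13 ± 0.08 for Aldoc and 0.01 ± 0.13 for Aldh1l1 (SE).

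At the level of single transcripts, the methods call a difference by an unadjusted p under 0.05 in a test on FPKM with equal variances. This called 4 of the 35 member transcripts that varied in Ctrl vs. HC (6.68% of all transcripts tested), 4 of 36 in NLH vs. Ctrl (7.2%), 2 of 35 in LH vs. Ctrl (7.69%) and 0 of 35 in LH vs. NLH (4.47%). With limma and adjustment over all 80137 transcripts, no member transcript was called in any comparison, while over all transcripts 0.00374% were in Ctrl vs. HC, 0.0125% in NLH vs. Ctrl, 0.0462% between LH and Ctrl and 0.0412% between LH and NLH. Limma at an unadjusted p under 0.05 gave 3 member transcripts in Ctrl vs. HC (3.45% of all transcripts), 4 in NLH vs. Ctrl (5.12%), 4 between LH and Ctrl (10.7%) and 3 between LH and NLH (8.72%). The numbers of called transcripts are small, and leaving out single mice moved them, for example between 1 and 5 in Ctrl vs. HC (1 without Ctrl replicate 3, Ctrl replicate 4 or HC replicate 3, and 2 without HC replicate 1) and in LH vs. Ctrl (5 without LH replicate 2, 1 without LH replicate 3 or Ctrl replicate 4).

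Glul accounted for 4 of the 10 calls that the methods' test made on the deposited scale, in 3 transcripts. Glul-201 has 7 exons and 2792 bases. Glul-202 (681 bases, 5 exons) and Glul-203 (379 bases, 4 exons) are annotated as incomplete at the 3′ end and hold the front part of the coding sequence, which they share with Glul-201. They held 15.7% and 36.7% of Glul FPKM. The FPKM of such short models depends strongly on how fragments that fit several transcripts are shared out.
Glul-201 was 178, 186, 176 and 197 FPKM in HC and 192, 218, 222 and 217 in Ctrl, and was called (exact permutation p = 0.0571, limma log2 difference 0.20 ± 0.12 (SE), adjusted p = 1). HC replicate 4 lay above Ctrl replicate 1, so the groups overlapped. Glul-201 was 191, 224, 265 and 230 in NLH and 247, 261, 197 and 172 in LH.
Glul-203 was 159, 165, 146 and 118 FPKM in HC, 158, 260, 222 and 210 in Ctrl, 93.2, 108, 175 and 131 in NLH and 176, 201, 144 and 157 in LH. It was called higher in Ctrl than in HC (exact permutation p = 0.0857) and lower in NLH than in Ctrl (exact p = 0.0571), with limma log2 differences of 0.52 ± 0.19 and -0.76 ± 0.19 (SE, adjusted p = 1 and 0.410). Glul-202 was 58.9, 54.0, 61.9 and 68.5 FPKM in Ctrl and 74.3, 98.8, 97.8 and 81.8 in NLH, without overlap, as were 5.02% of all transcripts in this comparison. It was called higher in NLH (exact permutation p = 0.0286, limma log2 difference 0.53 ± 0.14 (SE), adjusted p = 0.468).

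Since the transcripts of a gene share the scale of a library, their shares of the gene's FPKM do not depend on that scale. The share of Glul-203 was 39.8%, 40.4%, 38.2% and 30.9% in HC and 38.6%, 48.6%, 43.7% and 42.2% in Ctrl. In NLH it was 25.9%, 24.9%, 32.4% and 29.5%, and in LH 34.9%, 36.7%, 34.6% and 41.6%. NLH lay below all Ctrl and all LH mice and overlapped HC through HC replicate 4. The mean share was 28.2% ± 3.47 in NLH, 43.3% ± 4.15 in Ctrl and 37.0% ± 3.21 in LH (SD, n = 4 each), which is 15.1 percentage points lower in NLH than in Ctrl and 8.81 points higher in LH than in NLH. Glul-202 moved the other way, with 20.0% ± 2.17 in NLH, 12.6% ± 1.92 in Ctrl and 15.4% ± 1.92 in LH, and all NLH mice above all Ctrl and all LH mice. Glul-201 held 51.4% ± 1.70 in NLH and 43.7% ± 2.49 in Ctrl, again without overlap. Shares were tested by the exact permutation test, two-sided, for 5 transcripts of Glul and Aldoc in 4 comparisons, a choice made after the values were seen. In 6 of the 20 tests the groups did not overlap and p was 0.0286, the smallest possible, and none was under 0.05 after Benjamini-Hochberg adjustment over the 20 (smallest adjusted p = 0.0952). Of the 6, 4 were in NLH vs. Ctrl and 2 in LH vs. NLH. Over 17177 transcripts holding at least 10% of a gene with several such transcripts, the shares did not overlap for 4.84% in Ctrl vs. HC, 6.27% in NLH vs. Ctrl, 6.63% between LH and Ctrl and 4% between LH and NLH.

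**Figure D3:**
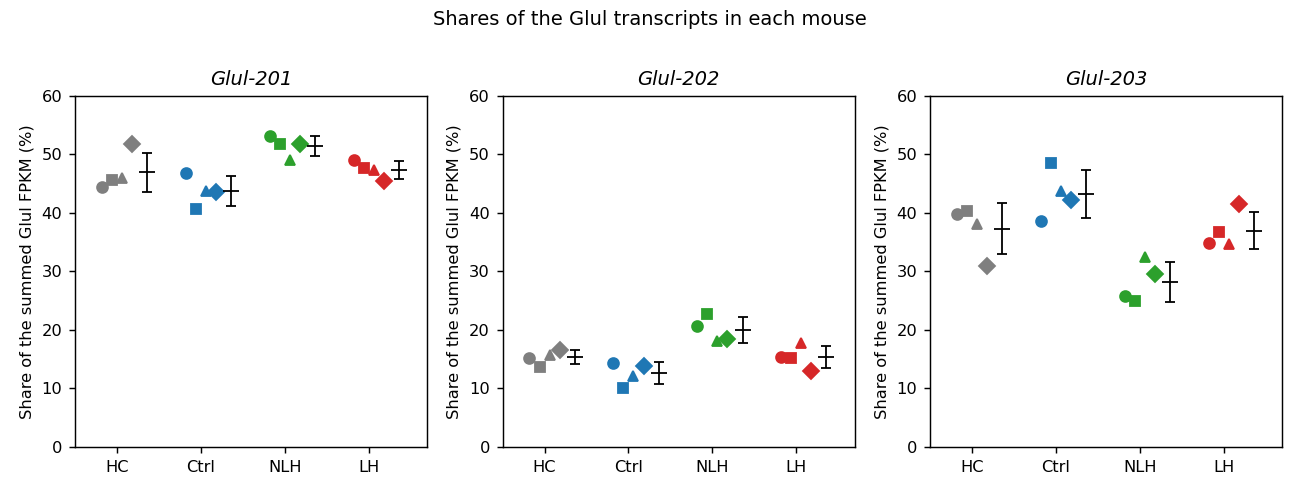
Share of the summed Glul FPKM (y axis, %) held by Glul-201, Glul-202 and Glul-203 in each mouse by group (x axis), with the marker shape giving the replicate number as in the plot of levels and the bar the mean ± SD of 4 mice. NLH mice are lowest for Glul-203 and highest for Glul-202 when set against Ctrl and LH.

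Aldoc had 2 main protein-coding transcripts from separate start sites, and their shares barely moved. Aldoc-202 held 79.1% ± 0.461 in HC and 79.6% ± 0.733 in Ctrl, then 78.4% ± 0.701 in NLH and 78.6% ± 2.45 in LH (SD, n = 4 each). All NLH mice were below all Ctrl mice, by 1.24 percentage points on average, which is the remaining 1 of the 6 tests without overlap. This was only just so, with NLH replicate 4 at 78.95% and Ctrl replicate 1 at 78.97%. In LH, replicate 4 was alone at 74.96%, and the other 3 mice were between 79.4% and 80.4%.

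Among the minor transcripts, the delta form Gfap-202 was 2.99, 3.09, 3.56 and 3.68 FPKM in Ctrl and 3.01, 2.60, 2.94 and 2.29 in NLH. The groups overlapped by 1 mouse each, and it was called lower in NLH (exact permutation p = 0.0571, limma log2 difference -0.29 ± 0.16 (SE), adjusted p = 0.994). Its share of Gfap FPKM ranged from 5.10% to 9.15% over the 16 mice. Slc1a2-204, with the ending of the b form, was 2.58, 1.11, 2.36 and 2.59 FPKM in Ctrl, whereas in LH it was 1.52 and 0.781 in replicates 1 and 2 and close to 0 in replicates 3 and 4. It was called lower in LH than in Ctrl (exact permutation p = 0.0571, limma adjusted p = 0.464) and higher in Ctrl than in HC (exact p = 0.0857, limma adjusted p = 1). LH replicates 3 and 4 are the mice with the most transcripts at 0, though HC replicate 1 and NLH replicate 3 were close to 0 for it as well. A further transcript, Slc1a2-201, ends at 102778106, close to the end of Slc1a2-204 at 102778097. Slc1a2-201 was 1.25 FPKM in LH replicate 3 and not above 0.1 in any other mouse. How fragments were shared out between these transcripts was not tested. The other calls were the intron-retaining Slc1a3-202 (lower in Ctrl than in HC, exact permutation p = 0.0571), the intron-retaining Slc1a3-205 (lower in LH than in Ctrl, exact p = 0.0571, with LH replicates 3 and 4 close to 0) and Sox9-201, the only Sox9 transcript. The study removed transcripts called in Ctrl vs. HC or NLH vs. Ctrl from its LH comparisons, and after this step 1 of the 2 calls in LH vs. Ctrl, Slc1a3-205, was left.

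Other astrocyte genes were tested in the same fits. Of 44 further astrocyte genes, none passed the adjusted limma threshold in any comparison. At an unadjusted limma p under 0.05, 7 were higher and none lower in Ctrl than in HC (2.7% of all genes called), and the median log2 difference of the 44 genes was 0.08 against 0.02 over all genes. The smallest p belonged to Dio2, the deiodinase that activates thyroid hormone, at 7.08 ± 0.650 FPKM in Ctrl and 4.59 ± 0.296 in HC (SD, n = 4 each), a log2 difference of 0.61 ± 0.13 (SE, limma adjusted p = 1). All Ctrl mice were above all HC mice for Dio2 and for the metallothionein Mt1 (69.7 ± 6.85 against 50.7 ± 5.14 FPKM). Ttyh1, a chloride channel family member, was 36.7 ± 2.31 in Ctrl and 28.7 ± 3.77 in HC. In NLH vs. Ctrl 2 of the 44 were under the unadjusted threshold (5.59% of all genes), including the lipid carrier gene Apoe (179 ± 19.4 against 136 ± 19.0 FPKM, log2 difference 0.40 ± 0.14, adjusted p = 0.712). In LH vs. Ctrl 2 were higher and 1 lower (11.5% of all genes called), and in LH vs. NLH 1 was lower (7.54%). After size factors 11 of the 44 were under the unadjusted threshold in Ctrl vs. HC (4.23% of all genes), 4 in NLH vs. Ctrl (6.99%), 8 between LH and Ctrl (15.8%) and 3 between LH and NLH (10.4%), and none passed the adjusted threshold.

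Of 29 genes of reactive astrocytes, none passed the adjusted threshold in any comparison, and at an unadjusted limma p 0 were called in Ctrl vs. HC and in NLH vs. Ctrl, 3 between LH and Ctrl (11.5% of all genes) and 2 between LH and NLH (7.54%). These counts are near or below the shares over all genes, and the genes named next are those of smallest p. Of the 29 genes, 18 had a mean FPKM under 1. The filament gene Vim was 0.817 ± 0.763 FPKM in LH, 2.64 ± 1.61 in NLH and 1.61 ± 0.767 in Ctrl, a log2 difference of -1.75 ± 0.52 in LH vs. NLH (SE, limma adjusted p = 0.450). Single mice weighed on these means, since Vim was 1.92 in LH replicate 1 and 4.85 in NLH replicate 1, and the means without them were 0.450 in LH and 1.91 in NLH. Emp1 was 0.686 ± 0.428 in LH and 0.307 ± 0.0957 in Ctrl without overlap, and Ggta1 0.886 ± 0.865 against 0.294 ± 0.0396. LH replicate 3 was highest for both, and without it the LH mean was 0.477 for Emp1 and 0.463 for Ggta1, for which LH replicate 4 lay below all Ctrl mice. Steap4 was under 0.1 FPKM on average in both LH and NLH. The genes Cxcl10, Timp1 and Ptx3 of this list were not analysed here.
In the glutamate and glutamine cycle, 13 genes were measured and none passed the adjusted threshold. The glutamine transporter gene Slc38a2 was 12.3 ± 0.821 FPKM in Ctrl and 9.45 ± 0.504 in HC without overlap (log2 difference 0.37 ± 0.11, limma adjusted p = 1). Slc17a6, a vesicular glutamate transporter of neurons, was 3.34 ± 1.49 in LH, 2.74 ± 0.436 in NLH and 1.83 ± 0.477 in Ctrl (log2 difference of LH vs. Ctrl 0.78 ± 0.26, adjusted p = 0.255). Of 10 endfoot genes none passed the adjusted threshold, and the laminin gene Lama2 (3.54 ± 0.795 in NLH, 2.59 ± 0.241 in Ctrl) had an unadjusted limma p under 0.05 in NLH vs. Ctrl.

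Markers of other cells of the tissue were measured alongside. None of the lists for neurons, oligodendrocytes and their precursors, microglia, vessels, choroid plexus and ependyma, blood and striatum had a gene past the adjusted limma threshold in any comparison. The summed FPKM of 10 choroid plexus and ependymal genes ran from 5.73 to 44.2 in HC, 21.3 to 58.9 in Ctrl, 6.69 to 72.8 in NLH and 3.52 to 106 in LH. The 9 neuronal genes summed to 719 to 789 in HC, 745 to 802 in Ctrl, 741 to 843 in NLH and 684 to 934 in LH, while the members summed to 804 to 856, 846 to 1017, 794 to 1085 and 750 to 1128. The part of these differences in the member levels was not tested.

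The members varied more between NLH and LH mice than between HC and Ctrl mice, a description without a test. The coefficient of variation of the 10 genes had a median of 6.65% in HC and 7.36% in Ctrl, as opposed to 12.7% in NLH and 22.1% in LH, and it was highest in LH for 10 of 10 genes. Over the 10436 genes with a mean FPKM of at least 1, it was highest in LH for 75.2%, and its medians were 10.5%, 9.89%, 14.0% and 24.6% in the same order of groups. After size factors the members' medians were 4.58%, 5.91%, 10.2% and 9.98%, and LH was highest for 3 of the 10 genes, against 64.1% of all genes, and NLH for 5 of the 10, against 19.9%. The medians over all genes on that scale were 9.81%, 9.25%, 12.1% and 18.9%.

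The 10 genes varied together across the mice. On the deposited scale all 45 pairs had a positive Pearson r of log2(FPKM + 0.1) over the 16 mice, with a median of 0.62, where 75.16% of all pairs of 10436 genes were positive, and 28 pairs had an adjusted p under 0.05 (permutation test, 100000 resamples, two-sided, Benjamini-Hochberg over the 45 pairs). By Spearman's rho 34 pairs did. An r of at least 0.5 was found in 32 of the 45 pairs and in 25.22% of all pairs of genes, and after size factors in 7 of the 45 and 7.85% of all pairs. The strongest pair was Slc1a3 and Aldoc (r = 0.91, rho = 0.90, permutation p = 1e-05, the smallest that the resamples can give, adjusted p = 0.000225), and r was 0.83 without the 2 mice farthest from the median of Slc1a3. Slc1a2 and S100b followed (r = 0.88, rho = 0.84, permutation p = 1e-05, r = 0.83 without the 2 farthest mice). The weakest were Gfap with Gja1 (r = 0.04) and Gfap with Sox9 (r = 0.28). After removal of the group means 18 pairs were called, with a median r of 0.70.

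The correlations depended on the scale of the libraries. Over all pairs of the 10436 genes the median r was 0.27 as deposited and close to 0 after size factors. The members' median r was 0.16 after size factors, 10 of the 45 pairs became negative (49.88% of all pairs were positive on this scale), and a single pair was called, Gfap and Slc1a3 (r = 0.80, permutation with adjusted p = 0.0126). Gja1 then ran opposite to Aldoc (r = -0.66, adjusted p = 0.115), Gfap (r = -0.60) and Slc1a3 (r = -0.57, adjusted p = 0.166 for both). Within the 14 mice without LH replicates 3 and 4, on the deposited scale, 25 pairs were called.

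**Figure D4:**
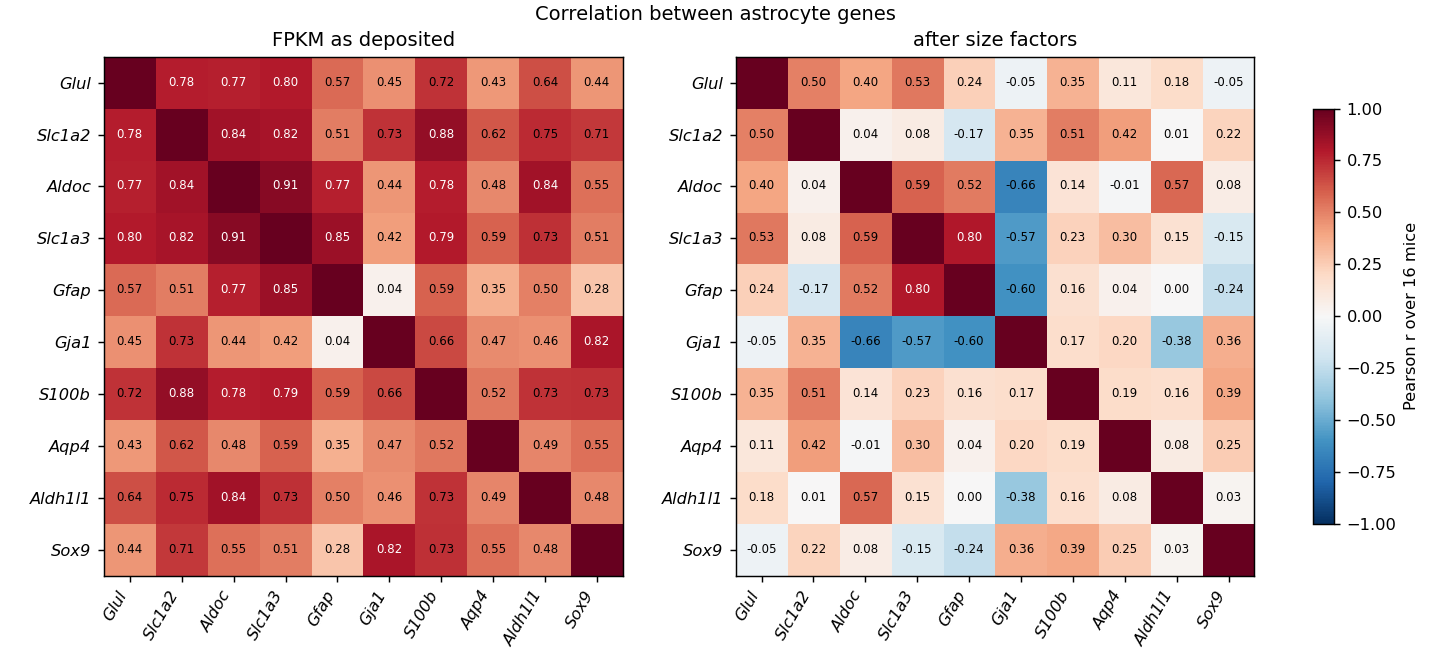
Pearson r over 16 mice for each pair of the 10 genes, ordered by mean level on both axes, on the deposited scale (left) and after size factors (right), with red for positive and blue for negative r. All 45 pairs are positive on the left, and Gja1 is negative with Aldoc, Gfap and Slc1a3 on the right.

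Gfap and Slc1a3, the pair called on both scales, are shown with the sequence before their RefSeq starts (GRCm38.p6, minus strand for both, 250 bases written 5′ to 3′ and ending next to the start). Of 6 motifs searched on both strands, capitals mark the matches, which were to the TATA box letters TATAAA and the STAT letters TTCNNNGAA. The others were the NFI letters TTGGCA, the SOX letters ACAATG, the AP-1 letters TGANTCA and the glucocorticoid response element. The Gfap window is chr11:102897201-102897450 and the Slc1a3 window chr15:8710808-8711057.
Gfap: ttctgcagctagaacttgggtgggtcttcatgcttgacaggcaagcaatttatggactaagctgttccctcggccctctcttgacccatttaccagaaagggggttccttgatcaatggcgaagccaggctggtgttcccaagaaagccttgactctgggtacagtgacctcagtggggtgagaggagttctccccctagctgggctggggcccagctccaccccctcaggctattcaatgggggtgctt
Slc1a3: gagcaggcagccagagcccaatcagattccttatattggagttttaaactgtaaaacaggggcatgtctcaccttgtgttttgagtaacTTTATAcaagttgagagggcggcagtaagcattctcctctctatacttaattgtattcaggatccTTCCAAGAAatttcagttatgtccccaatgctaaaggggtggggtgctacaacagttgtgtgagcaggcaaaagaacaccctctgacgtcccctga
The Slc1a3 window held 1 TATA box match, 1 STAT match and none to the other 4 motifs, and the Gfap window held no match to any of the 6. Of 32851 promoter windows of this length, 12.4% held the TATA box letters, 7.02% the STAT letters, 12.3% the NFI letters, 10.7% the SOX letters, 6.75% the AP-1 letters and 0.387% the glucocorticoid response element.

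By the mean standardized profile of the 10 genes, the non-member genes most like them over the 16 mice, among genes with a mean FPKM of at least 1, were Fads1 (r = 0.96), Rps3 (0.95), Hpcal4 (0.94), Zfp180, Ago2, Ftl1, Copg1, Kdelr2, Gramd1b and Txlna (0.93 to 0.94). After size factors the order was different, with Rilpl2 (r = 0.79), Npy5r (0.76) and Dcakd (0.73) first, and 3 of the 10 genes (Fads1, Ftl1 and Gramd1b) were among the first 10 on both scales, while Copg1 was at 0.46. All genes shared the libraries and their scale, and the median r of the 10426 genes to this profile was 0.52. The 44 further astrocyte genes had a median r of 0.68, the 9 neuronal genes 0.61, 9 microglial genes 0.65 and 5 genes of oligodendrocyte precursors 0.74. After size factors, with the profile also rescaled, the median was close to 0 over all genes, 0.21 for the astrocyte genes (35 of 44 positive), -0.17 for the neuronal genes (3 of 9 positive), -0.08 for 9 oligodendrocyte genes, 0.03 for the precursors, 0.23 for the microglial genes (8 of 9 positive) and 0.39 for 4 blood genes (4 of 4 positive). The precursor list was thus above the astrocyte list as deposited, and the microglial and blood lists after size factors. These are descriptions across genes, which are not independent of each other. Per mouse, the members' profile was highest in LH replicates 2 and 1 and NLH replicate 3 and lowest in LH replicate 4, and after size factors highest in Ctrl replicates 3 and 4.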

How the data were processed

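The authors deposited 1 table of FPKM values, 1 column per mouse, without logarithm or scaling between mice. RNA was taken with Trizol 3 h after the test, made into libraries with a total RNA kit and sequenced in pairs of reads. The study's methods give alignment to mm10 with HISAT2, whereas the submitters' processing notes name STAR 2.42a. Transcripts were merged with StringTie 1.2.3 and quantified with Cufflinks. Whether strand was kept is not given in the sources used here. FPKM carries no read counts. The value of 1 fragment was read from the spacing of low FPKM at 1962 single-transcript loci, taking fragments to be 200 bases long, and gave the depth. No counting interval is given.

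Transcripts of 1 gene name were summed. Assembled transcripts without a gene name stayed out, and they held 19.0% of the Aqp4 and 11.1% of the Slc1a2 locus. Group means of log2(FPKM + 0.1) over the 16 mice were compared with limma 3.58.1 in R 4.3.3, using its trend and robust options, and p was adjusted by Benjamini-Hochberg across all gene names. Log2 differences are on that scale and understate low genes. Transcripts were also tested as in the methods, with equal variances and an unadjusted p under 0.05, where 1 transcript of a comparison could be constant and untested. Exact permutation tests used the 70 splits of 8 mice. On simulated data with 200 genes changed by a factor of 4, limma on 18287 genes recovered 95% of them for LH vs. Ctrl and 97.5% for LH vs. NLH. The changed genes had a mean FPKM of at least 1, and all groups were given the same spread. A factor of 4 is far larger than any member difference, so the recovery does not apply to differences of the size found here. Python 3.11.15, numpy 2.4.6, pandas 2.3.3 and matplotlib 3.10.9 were also used.

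The members and the lists were chosen with earlier results of these data known. Named are all members, member transcripts with at least 10% of their gene's FPKM or called in a comparison, up to 4 genes of smallest limma p from each list of astrocyte biology, and the 10 genes with the highest r to the members' mean standardized profile. Of the lists of other cells, the counts past the adjusted threshold are given, with sums for neuronal and for choroid plexus and ependymal genes. 1 gene of the lists and some sequences are not reported here. Each mouse is a separate library of its group. Alternatives are given in the closing section, and the authors' class column was not used.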

Additional observations from a re-analysis of the deposited data

Results flagged for a closer look

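In NLH, S100b was 25.4 FPKM in replicate 3, while the other 3 mice lay between 19.9 and 20.4. The gap from replicate 3 to the nearest mouse was 0.913 of the whole range of the group, above Dixon's 95% critical value for 4 mice. Among 60 groups of 4 mice tested (the 10 genes and 5 transcripts of Glul and Aldoc in 4 groups), this was the only one, and chance flags about 1 in 20 groups. NLH replicate 3 also had the largest size factor of its group, and after size factors its gap was 0.418 of the range, below the critical value.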

How the results depend on the processing

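The count of genes past the adjusted threshold, 0 in each comparison, stayed 0 with 0.01 or 1 added before the logarithm, with size factors, at a mean FPKM of at least 1, with only the groups compared in the fit, with assembled transcripts of the locus added (chosen after seeing the data), and without any single mouse. By construction it was also 0 with Ensembl transcripts alone, since no assembled transcript carries a gene name. It became 1 (Sox9) in LH vs. Ctrl without LH replicates 3 and 4, and 1 in Ctrl vs. HC and 1 in NLH vs. Ctrl with the methods' unadjusted test on sums. Of the 40 exact permutation tests of single genes 1 was under 0.05, and 3 after size factors, a scale added after seeing the data (Glul and Aldoc in Ctrl vs. HC, Slc1a2 in LH vs. NLH, where 6.08% and 2.93% of all genes did not overlap). Called transcripts fell to 0 in Ctrl vs. HC, NLH vs. Ctrl and LH vs. Ctrl with adjustment over all transcripts, by the methods' test or by limma. In LH vs. Ctrl they were 1 at a mean FPKM of at least 1 (12.1% of all such transcripts), 7 with size factors (8.25% of all transcripts) and 8 without LH replicates 3 and 4 (13.7%), and in LH vs. NLH 2 with size factors (4.84%) and 3 without those mice (6.39%). Leaving out each mouse in turn gave 1 to 5 in Ctrl vs. HC (5.49% to 6.40% of all transcripts), 2 to 4 in NLH vs. Ctrl (5.62% to 8.49%, with 2 without NLH replicate 2 or NLH replicate 4), 1 to 5 in LH vs. Ctrl (5.77% to 10.1%) and 0 to 1 in LH vs. NLH (3.18% to 5.46%, with 1 without LH replicate 2, NLH replicate 1 or NLH replicate 3). The 28 correlated pairs became 18 with group means removed and 1 with size factors, and 21 to 34 with each mouse left out. With the replicate number as a block, no gene was called and transcripts were 1 in LH vs. Ctrl (5.29% of all transcripts), with the other calls within 1.5 times of those without the block. Mice with the same number had a median r of -0.02 after removal of group means, and 3 of 24 pairs were over 0.1, so the numbers were not taken to pair mice.

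None of the 40 gene differences was called on the deposited scale, and 911 of 960 values under alternatives kept their direction and their side of the threshold. Part of this count was fixed in advance. Leaving out a mouse outside a comparison, or fitting only the groups compared, cannot change the direction of its difference. The count is thus no measure of how stable the differences are. Without LH replicates 3 and 4 the log2 difference changed sign for Slc1a3 (0.17), Glul (0.11) and Aldoc (0.22) in LH vs. Ctrl and for Gfap (0.047), Slc1a3 (0.19), Aldh1l1 (0.16), S100b (0.19) and Aldoc (0.15) in LH vs. NLH. With size factors it did so in NLH vs. Ctrl for Slc1a2 (-0.026), Gja1 (-0.027) and Aldoc (-0.0027) and in LH vs. NLH for S100b (0.029). With assembled transcripts it did so for Aqp4 in NLH vs. Ctrl (0.038) and Slc1a2 in LH vs. NLH (-0.017). Leaving out each mouse in turn changed the sign of differences near 0. In Ctrl vs. HC these ranged from -0.14 to 0.064 for Aqp4, -0.012 to 0.10 for S100b and -0.099 to 0.097 for Sox9. In NLH vs. Ctrl they ranged from -0.12 to 0.13 for Aqp4 and -0.10 to 0.058 for Slc1a3. In LH vs. Ctrl they ranged from -0.011 to 0.17 for Slc1a2, -0.21 to 0.029 for Slc1a3, -0.11 to 0.23 for Aldh1l1, -0.18 to 0.0020 for Glul, -0.015 to 0.19 for S100b and -0.23 to 0.080 for Aldoc. In LH vs. NLH they ranged from -0.063 to 0.11 for Slc1a2, -0.18 to 0.055 for Slc1a3, -0.31 to 0.034 for Aldh1l1, -0.042 to 0.15 for Glul, -0.11 to 0.090 for S100b, -0.30 to 0.0048 for Aldoc and -0.20 to 0.26 for Sox9. The cause of these changes was not tested.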
